A study of Mus musculus with 6 samples.

Results

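The genes described here encode the carriers that move bile acids and sterols across the 2 faces of the hepatocyte. They are 10 genes of the 21528 listed in the liver expression tables, chosen by name: Slc10a1, Slco1a1, Slco1a4, Slco1b2, Abcb11, Abcb4, Abcc2, Abcc3, Abcg5 and Abcg8. All 10 were listed in all 6 libraries and all 10 passed the filter on low values. The study compared the liver RNA of wild-type (WT) mice with that of mice homozygous for TRIM24 C52/55A, a CRISPR/Cas9 knock-in in which a pair of cysteines in the RING domain of the endogenous ubiquitin ligase TRIM24 is changed to alanine. There were 3 libraries from each genotype, with WT littermates as controls. The strain is C57BL/6 in the labels, and the knock-in was made on a C57Bl/6J background by the study's methods. All mice were 5 months old and had received a 60% fat diet for 3 months. The diet was common to both groups and no lean group was analysed here, so each comparison is one of genotype during high-fat feeding. The knock-in is in the germline and was not limited to a cell type of the liver.

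Bile acids return to the liver in portal blood and are taken up at the sinusoidal face of the hepatocyte by the sodium-dependent carrier NTCP (Slc10a1) and by sodium-independent organic anion transporting polypeptides (the Slco genes). At the canalicular face, ATP-driven pumps pass bile acids, phospholipid, organic anion conjugates and sterols into bile, and the amounts of these lipids in bile depend on one another. A further ATP-driven carrier, MRP3 (Abcc3), returns conjugates to blood across the sinusoidal and lateral membrane. Several Slco genes are also known for levels that differ between male and female mouse liver.

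Levels are given as FPKM, fragment numbers scaled to transcript length and to the mapped total of the library, which allows genes to be compared per unit of length. Fold changes are TRIM24 C52/55A minus WT on the log2(FPKM + 1) scale, which understates the change of low genes, and adjusted p-values are from limma with Benjamini-Hochberg adjustment over the 12225 genes tested. The libraries listed 17709 to 17984 genes each. The read total behind each was not given, but the spacing of the low values placed their depths at 0.963 to 1.032 times that of WT replicate 1. In the livers as a whole, 200 genes rose and 744 fell, and the median log2 fold change of all genes tested was -0.075. That split moved to 250 and 406 with median-of-ratios scaling and to 255 and 378 with quantile normalisation, and to 197 and 1358 when values were rescaled to TPM. The tissue carried the hepatocyte signature its label gives, with 11 of 12 marker genes listed at a summed 19830 to 20130 FPKM in WT and 19280 to 22100 FPKM in TRIM24 C52/55A. The other marker, Alb, was not among the genes listed in these libraries, so its level is not known here. Trim24 itself had 5.54, 4.85 and 5.96 FPKM in WT and 6.15, 4.31 and 8.46 FPKM in TRIM24 C52/55A, and since the knock-in changes codons and not the amount of transcript by design, this level checks no label.

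One library stood apart. TRIM24 C52/55A replicate 2 held 4.55 FPKM of Adipoq, 3.98 FPKM of Lep and 3.32 FPKM of Plin1, genes of the fat cell, which were at or below 0.127 FPKM in the other 5 libraries. Of 11 adipocyte markers 9 were tested, of which Adrb3 rose (log2 fold change 1.86) and Cidec fell (-2.36), with 1 higher and 3 lower without that library. The summed level of the 11 was 1924 to 2295 FPKM in WT and 1517 to 2158 FPKM in TRIM24 C52/55A, nearly all of it Car3. Without Car3 the sum was 49.7, 39.4 and 35.4 FPKM in WT and 15.4, 81.2 and 22.6 FPKM in TRIM24 C52/55A, highest in replicate 2. The part of this in the results was not tested, and the calls of the transporters and of each gene list are given with and without that library. In bulk liver, fewer cells of a type and less RNA per cell cannot be told apart. The labels number the libraries within a genotype without naming the mice. Each library is taken here as a separate liver, which the labels do not state. The p-values set the difference between the genotypes against the spread between these libraries.

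Of the 10 transporters, 1 rose (Slco1a1) and 3 fell (Slc10a1, Slco1a4 and Abcc3). Among all genes tested, 1.64% rose and 6.09% fell. The 3 libraries of one genotype lay wholly outside the range of the other for 5 of the 10, the 4 above and Abcb11, against 28.9% of all genes tested. The median log2 fold change of the 10 was -0.17. With that replicate 2 library, which held the fat cell transcripts, omitted, the calls were 2 higher (Slco1a1 and Abcb11) and 2 lower (Slc10a1 and Abcc3), against 1.96% higher and 8.45% lower among all genes in that fit. By the exact permutation test on FPKM, the 5 genes without overlap reached p = 0.1, which is the smallest that 3 against 3 libraries allow, and their value adjusted over the 10 exact tests was 0.2.

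**Figure D1:**
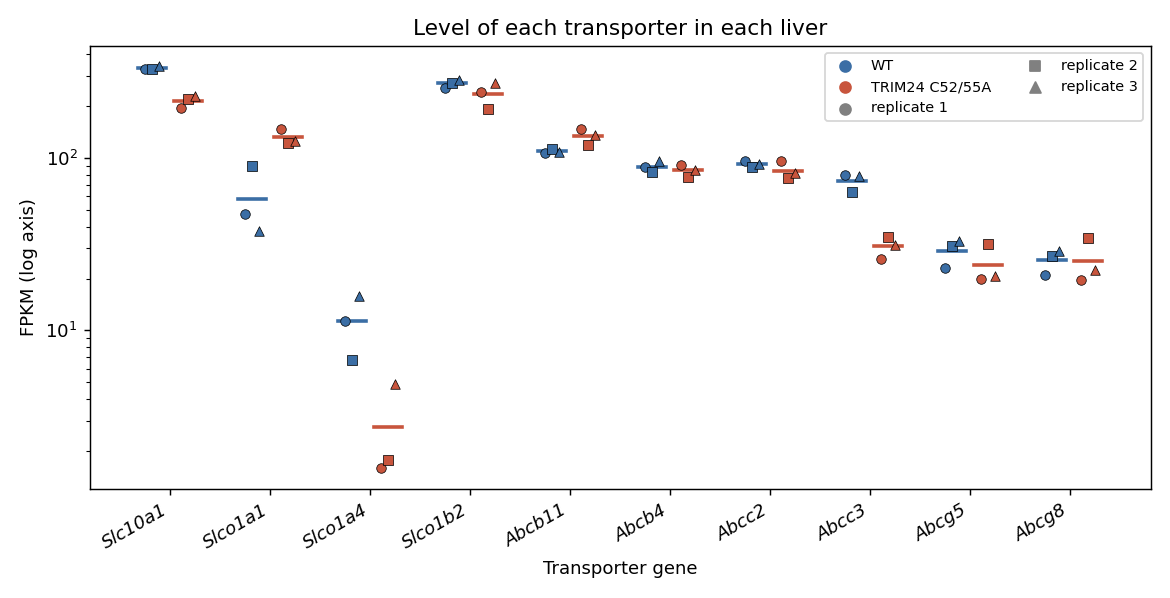
Level of each of the 10 transporters in each liver, in FPKM on a log axis, with one point per library (blue, WT; red, TRIM24 C52/55A; the marker shape gives the replicate number) and a bar at the group mean of 3. The WT and TRIM24 C52/55A points are separated for Slc10a1, Slco1a1, Slco1a4, Abcb11 and Abcc3, and they mix for the other 5 genes.

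The upstream sequence of 3 uptake genes is shown because their transcripts differed between the genotypes in opposite directions although Slco1a1 and Slco1a4 lie 51.1 kb apart on chromosome 6. Each is the 250 bases before a RefSeq transcript start in GRCm38.p6, read 5′ to 3′ on the minus strand, which is the coding strand of all 3 genes. Capitals mark AGGTCA, the core motif bound by nuclear receptors such as FXR and LXR, on either strand. The windows are Slco1a1 chr6:141946963-141947212, Slco1a4 chr6:141856221-141856470 and, for the Slc10a1 start that matches the interval in the expression tables, chr12:80968080-80968329.
Slco1a1: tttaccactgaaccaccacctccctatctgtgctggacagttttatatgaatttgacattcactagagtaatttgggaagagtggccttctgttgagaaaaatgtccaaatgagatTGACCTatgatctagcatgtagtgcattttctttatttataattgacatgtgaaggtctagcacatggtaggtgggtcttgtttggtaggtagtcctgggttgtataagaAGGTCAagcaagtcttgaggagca
Slco1a4: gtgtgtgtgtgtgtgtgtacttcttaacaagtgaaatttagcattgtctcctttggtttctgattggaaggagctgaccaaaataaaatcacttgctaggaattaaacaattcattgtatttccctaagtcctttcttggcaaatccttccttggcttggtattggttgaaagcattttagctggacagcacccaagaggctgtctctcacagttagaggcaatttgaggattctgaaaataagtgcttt
Slc10a1: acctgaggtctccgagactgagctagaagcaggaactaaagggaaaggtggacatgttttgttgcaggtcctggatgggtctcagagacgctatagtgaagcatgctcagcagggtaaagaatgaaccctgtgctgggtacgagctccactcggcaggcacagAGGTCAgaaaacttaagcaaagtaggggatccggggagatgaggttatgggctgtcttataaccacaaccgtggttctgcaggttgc

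Upstream of Slco1a1, AGGTCA was found 2 times, at 134 to 129 and at 24 to 19 bases before the start. The Slc10a1 window held it once, at 87 to 82 bases before the start, and the Slco1a4 window held none of the motifs searched. The others searched, on both strands, were TTCNNNGAA, to which STAT factors bind, GATAA, to which GATA factors bind, and TGACNNNGC, the core of the element bound by NRF2. In all 32851 such RefSeq windows AGGTCA was present in 14%, TTCNNNGAA in 7.02%, GATAA in 22.6% and TGACNNNGC in 10.2%. No matches overlapped. Of the 10 genes, 9 had an entry, in 11 windows. A second Slc10a1 start had TTCNNNGAA at 53 to 45 bases. Slco1b2 carried TTCNNNGAA at 206 to 198 bases and AGGTCA at 81 to 76 bases, Abcb11 carried AGGTCA at 56 to 51 bases, Abcb4 carried GATAA at 98 to 94 bases, and Abcc2 carried AGGTCA at 49 to 44, GATAA at 150 to 146 and TGACNNNGC at 98 to 90 bases. These matches describe the letters of each window and were not related to the levels.

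Of the 4 sinusoidal uptake carriers, Slc10a1 and Slco1a4 fell, Slco1a1 rose and Slco1b2 did not pass the test. Slc10a1 (GRCm38, chromosome 12, 80953185 to 80968079, minus strand) encodes NTCP, the main carrier of conjugated bile acids from portal blood. Its level was 327.9, 330.3 and 341.3 FPKM in WT and 193.8, 220.4 and 227.7 FPKM in TRIM24 C52/55A. Every TRIM24 C52/55A liver was below every WT liver, and the WT livers were close to one another. The mean fell from 333.2 ± 7.13 to 214.0 ± 17.8 FPKM (SD, n = 3), 1.56-fold lower, with a log2 fold change of -0.64 (SE 0.08, limma adjusted p = 0.00485). It passed the test under all 15 processing alternatives, from -0.70 to -0.48, and the limma adjusted p was 0.00912 with TRIM24 C52/55A replicate 2 left out.

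Slco1a1 (chromosome 6, 141907282 to 141946962, minus strand) encodes OATP1A1, an uptake carrier of organic anions and conjugated steroids whose transcript is known to be predominant in male liver. The level was 47.1, 89.7 and 37.8 FPKM in WT and 146.8, 122.7 and 125.8 FPKM in TRIM24 C52/55A. All 3 TRIM24 C52/55A livers were above the highest WT liver, while the WT livers differed among themselves by 2.37-fold. The means were 58.2 ± 27.7 and 131.7 ± 13.1 FPKM (SD, n = 3), 2.26-fold higher in TRIM24 C52/55A, with a log2 fold change of 1.26 (SE 0.27, limma adjusted p = 0.0301). This call passed in 9 of 15 alternatives and was lost without WT replicate 1 (adjusted p = 0.101), WT replicate 3 (0.0867), TRIM24 C52/55A replicate 1 (0.116) or TRIM24 C52/55A replicate 3 (0.0547). With TRIM24 C52/55A replicate 2 left out, the limma adjusted p was 0.0483.

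Slco1a4 (chromosome 6, 141805440 to 141856199, minus strand), 51.1 kb from Slco1a1, encodes OATP1A4, a carrier of bile acids and other amphipathic anions whose transcript is known to be predominant in female liver. Its level was 11.3, 6.78 and 15.9 FPKM in WT and 1.58, 1.78 and 4.91 FPKM in TRIM24 C52/55A. The groups did not overlap, and in each the lowest and highest livers were well apart. The mean of 11.3 ± 4.55 FPKM fell to 2.76 ± 1.86 FPKM (SD, n = 3), 4.11-fold lower, with a log2 fold change of -1.75 (SE 0.36, limma adjusted p = 0.0251). As for Slco1a1, the call passed in 9 of 15 alternatives. It was lost without WT replicate 1 (adjusted p = 0.0832), WT replicate 3 (0.0943), TRIM24 C52/55A replicate 1 (0.101) or TRIM24 C52/55A replicate 2 (0.0549). The spliced sequences of Slco1a1 and Slco1a4 share 134 words of 31 bases, which is 3.31% of those of Slco1a1 and 3.48% of those of Slco1a4, so a small share of reads may be assigned to either gene. Slco1a4 also shares 5.66% of its words with Slco1a5, which was not listed in these libraries, and 2.75% with Slco1a6. For Slco1a1 these shares are 3.23% and 2.74%.

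Slco1b2 (chromosome 6, 141629518 to 141686646, plus strand), 118.8 kb from Slco1a4 on the other side, encodes OATP1B2, the broad uptake carrier of unconjugated bile acids. There were 254.9, 271.6 and 285.0 FPKM in WT and 242.0, 191.1 and 271.9 FPKM in TRIM24 C52/55A. The groups overlapped. Their means were 270.5 ± 15.1 and 235.0 ± 40.8 FPKM (SD, n = 3), and the log2 fold change was -0.22 with a 95% interval from -0.51 to 0.07 (limma adjusted p = 0.356). TRIM24 C52/55A replicate 2 was the lowest of all livers for this gene, and without it the log2 fold change was -0.07 (limma adjusted p = 0.614).

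The contribution of each uptake carrier to their total was also compared, by sums and shares chosen after the values were seen. Slc10a1 made up 49.5 ± 2.01% of the summed FPKM of the 4 carriers in WT and 36.8 ± 4.01% in TRIM24 C52/55A (SD, n = 3). Slco1a1 went from 8.58 ± 3.80% to 22.7 ± 2.60%, and Slco1a4 from 1.69 ± 0.69% to 0.46 ± 0.28%. For these 3 shares the livers of the genotypes did not overlap (exact permutation p = 0.1 each, the smallest possible, and 0.16 adjusted over the 8 sums and shares). With TRIM24 C52/55A replicate 2 left out, the TRIM24 C52/55A means of these shares were 34.7%, 22.5% and 0.525%. The Slco1b2 share was 40.2 ± 1.56% and 40.1 ± 3.92% (exact p = 1.0). The sum of all 4 was 641.3, 698.4 and 680.0 FPKM in WT and 584.1, 536.0 and 630.3 FPKM in TRIM24 C52/55A, 0.867 of the WT mean.

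Of the 5 canalicular genes, none passed the limma test after adjustment, and 1, Abcb11, had an unadjusted p under 0.05. Among all genes tested, 4.63% were higher and 19% lower at an unadjusted p under 0.05, and the unadjusted counts given for lists stand against these shares. Abcb11 (chromosome 2, 69238282 to 69342616, minus strand) encodes BSEP, the bile salt export pump. It had 107.2, 112.9 and 108.5 FPKM in WT and 146.6, 119.0 and 135.2 FPKM in TRIM24 C52/55A. All TRIM24 C52/55A livers were above all WT livers, and WT livers varied little. The antisense gene Gm13613, which overlaps an exon of Abcb11, had a mean below the filter of 0.5 FPKM. The means were 109.5 ± 2.98 and 133.6 ± 13.8 FPKM (SD, n = 3), with a log2 fold change of 0.28 and a 95% interval from 0.07 to 0.48 (limma adjusted p = 0.102). It passed the test with quantile normalisation (log2 fold change 0.43, adjusted p = 0.0366) and without TRIM24 C52/55A replicate 2 (0.36, adjusted p = 0.0288).

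Abcb4 (chromosome 5, 8893717 to 8959231, plus strand) encodes MDR2, the floppase that supplies phosphatidylcholine to bile. It had 88.7, 82.7 and 95.5 FPKM in WT and 90.6, 77.9 and 85.6 FPKM in TRIM24 C52/55A, and the groups overlapped. The log2 fold change was -0.07 with a 95% interval from -0.27 to 0.13 (limma adjusted p = 0.688). Abcc2 (chromosome 19, 43782192 to 43840740, plus strand) encodes MRP2, which exports bilirubin glucuronides and glutathione conjugates. Its level was 95.5, 88.5 and 91.8 FPKM in WT and 95.6, 76.3 and 81.8 FPKM in TRIM24 C52/55A, again with overlap. The log2 fold change was -0.12 with a 95% interval from -0.34 to 0.09 (limma adjusted p = 0.487). For both genes the direction depended on the scaling, turning to 0.03 for Abcb4 with median-of-ratios scaling and to 0.09 for Abcb4 and 0.04 for Abcc2 with quantile normalisation.

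Abcg5 and Abcg8 encode the chains of a single sterol exporter, which moves cholesterol and plant sterols into bile. They lie head to head on chromosome 17, and the expression tables give both the same interval, 84658234 to 84700333, so it is the annotation that separates Abcg5 on the minus strand (84658234 to 84683011) from Abcg8 on the plus strand (84676302 to 84700333). RefSeq gives Abcg8 a second start at 84676302, inside Abcg5, whose window held none of the motifs searched. The 109 bases between the Abcg5 start and the other Abcg8 start, at 84683121, are shown because they lie upstream of both, on the plus strand of GRCm38.p6 at chr17:84683012-84683120. Capitals mark GATAA, which is present 2 times, on the minus strand and so written TTATC. The full 250-base window of that Abcg8 start held GATAA once more, at 126 to 122 bases.
Abcg5 to Abcg8: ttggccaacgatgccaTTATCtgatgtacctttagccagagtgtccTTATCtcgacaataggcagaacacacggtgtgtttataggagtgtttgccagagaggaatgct

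Abcg5 had 23.0, 30.9 and 33.0 FPKM in WT and 19.8, 31.6 and 20.8 FPKM in TRIM24 C52/55A. Abcg8 had 20.9, 27.0 and 28.9 FPKM in WT and 19.5, 34.3 and 22.3 FPKM in TRIM24 C52/55A. In both genes TRIM24 C52/55A replicate 2 was the highest of its group and the genotypes overlapped. The log2 fold change of Abcg5 was -0.27 with a 95% interval from -0.71 to 0.17 (limma adjusted p = 0.452), and it became -0.48 (adjusted p = 0.0874) with TRIM24 C52/55A replicate 2 left out. That of Abcg8 was -0.04 with an interval from -0.50 to 0.43 (limma adjusted p = 0.935), and its sign turned under 6 of 15 alternatives. Without TRIM24 C52/55A replicate 2 the Abcg8 value was -0.27 (adjusted p = 0.263). The Abcb4 and Abcc2 values were -0.01 and -0.06 without that library (limma adjusted p = 0.935 and 0.724). The annotated genes overlap at their exons and share 12 words of 31 bases, and whether the counting used strand was not given in the sources used here.

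Abcc3 (chromosome 11, 94343295 to 94392997, minus strand), which encodes MRP3, the basolateral exporter of glucuronide conjugates and bile acids, fell. There were 79.9, 63.2 and 78.3 FPKM in WT and 26.1, 34.9 and 31.3 FPKM in TRIM24 C52/55A. The highest TRIM24 C52/55A liver was well below the lowest WT liver. The mean fell from 73.8 ± 9.23 to 30.7 ± 4.43 FPKM (SD, n = 3), 2.40-fold lower, with a log2 fold change of -1.24 (SE 0.13, limma adjusted p = 0.00213). It passed under all 15 alternatives, from -1.35 to -1.09, and the limma adjusted p was 0.00362 with TRIM24 C52/55A replicate 2 left out. Bile duct cells also express Abcc3. Of 12 cholangiocyte markers 8 passed the filter and 1 rose, Cdh1 (log2 fold change 1.26, limma adjusted p = 0.0482), with 0 calls without TRIM24 C52/55A replicate 2. At an unadjusted p under 0.05 in the limma fit there were 2 higher, Cdh1 and Sox9 (0.54), and 2 lower, Spp1 (-0.58) and Epcam (-0.42). The summed level of all 12 was 42.2 to 70.3 FPKM in WT and 38.5 to 66.7 FPKM in TRIM24 C52/55A. The defining Krt19, Krt7 and Epcam were at or below 1.40 FPKM in every liver.

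**Figure D2:**
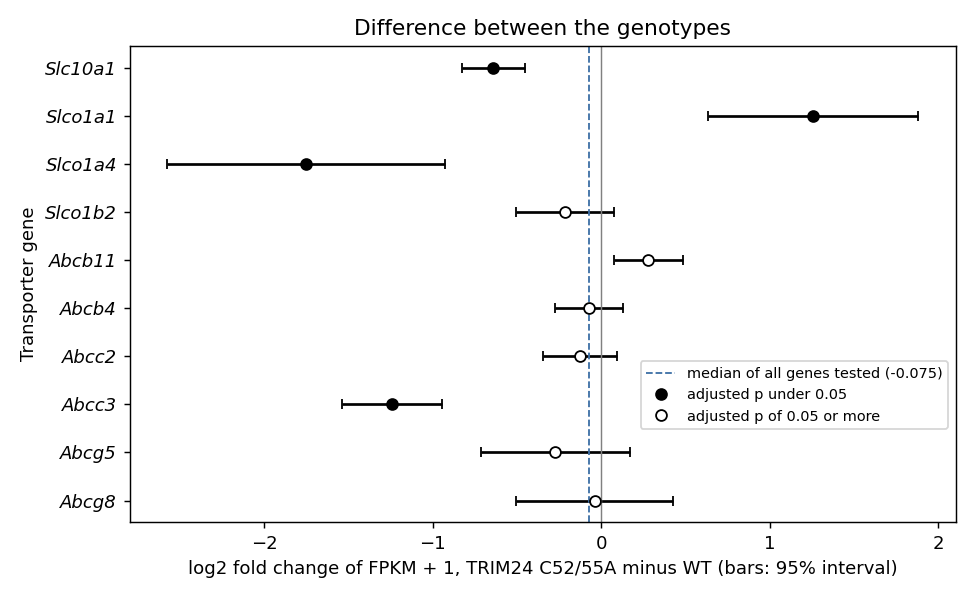
Log2 fold change of FPKM + 1 for each transporter, TRIM24 C52/55A minus WT, with its 95% interval from limma (3 against 3 livers). Filled points have an adjusted p under 0.05, and the dashed line is the median of all genes tested, -0.075. The intervals of Slco1a1, Abcb11, Slc10a1, Slco1a4 and Abcc3 exclude 0, but after adjustment Abcb11 does not pass.

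The order of the levels also differed. In WT, Slc10a1 was highest, followed by Slco1b2, Abcb11, Abcc2 and Abcb4, then Abcc3 and Slco1a1, then Abcg5 and Abcg8, with Slco1a4 lowest. This is the order of the means. The ranges of Abcc2 and Abcb4 overlapped, as did those of Abcg5 and Abcg8, and the wide range of Slco1a1 overlapped those of Abcc3, Abcb4 and Abcc2. In TRIM24 C52/55A the ranges of Slco1b2 and Slc10a1 overlapped at the top, Slco1a1 overlapped with Abcb11, Abcb4 with Abcc2, and Abcc3 overlapped with Abcg8 and Abcg5, with Slco1a4 again lowest.

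A ratio of FPKM between a pair of transporters within a library is free of the scaling factor of that library, while on the log2(FPKM + 1) scale the ratio still depends on scale and pseudocount where a gene is low, as Slco1a4 is. The Slco1a1 over Slco1a4 pair was picked with earlier results known and that of Slc10a1 over Abcb11 after its values were seen. Slco1a1 was 4.16, 13.2 and 2.38 times the FPKM of Slco1a4 in WT and 92.7, 68.7 and 25.6 times in TRIM24 C52/55A. On the log2(FPKM + 1) scale this ratio was 2.24 ± 1.20 in WT and 5.25 ± 0.73 in TRIM24 C52/55A (SD, n = 3), a difference of 3.01, and no livers overlapped. The difference was 3.38 with a pseudocount of 0.1 and 2.90 without TRIM24 C52/55A replicate 2.

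Slc10a1 over Abcb11, uptake over canalicular export of bile salts, was 3.06, 2.93 and 3.15 in WT and 1.32, 1.85 and 1.68 in TRIM24 C52/55A. Abcc3 over Abcc2, basolateral over canalicular export of conjugates, was 0.837, 0.714 and 0.853 in WT and 0.273, 0.457 and 0.382 in TRIM24 C52/55A. Both ratios were lower in every TRIM24 C52/55A liver than in any WT liver, with log2 differences of -0.92 and -1.11, and of -1.02 and -1.28 without TRIM24 C52/55A replicate 2. Abcg5 over Abcg8 was 1.10, 1.15 and 1.14 in WT and 1.015, 0.923 and 0.934 in TRIM24 C52/55A, a log2 difference of -0.23 without overlap, although neither gene differed beyond its own spread. Each of the 4 ratios gave an exact two-sided permutation p of 0.1, the smallest possible, and 0.1 after adjustment over the 4.

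**Figure D3:**
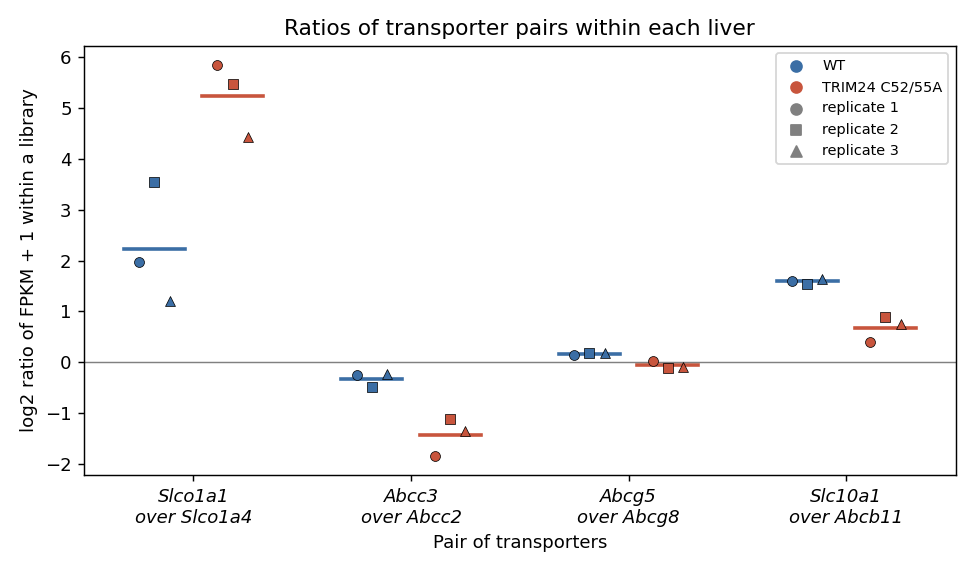
Log2 ratio of FPKM + 1 of 4 pairs of transporters within each library, one point per liver (blue, WT; red, TRIM24 C52/55A), with a bar at the mean of 3. In every pair the genotypes are separated, most widely for Slco1a1 over Slco1a4, whose mean is 2.24 in WT and 5.25 in TRIM24 C52/55A.

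Lists of male-biased and female-biased liver genes were counted beside the Slco1a pair. These lists and those below were written with earlier results of these data known, so their counts are not an independent test. Among all genes tested, 1.64% rose and 6.09% fell. Of 19 male-biased genes tested 15 rose and 0 fell in the limma fit (median log2 fold change 1.57; 19 higher and 0 lower at an unadjusted p under 0.05), among them Obp2a (6.60), Selenbp2 (4.95) and Serpina1e (3.10). Of 24 female-biased genes listed 15 passed the filter, and of these 0 rose and 7 fell (median -0.85, with 2 higher and 8 lower at an unadjusted p under 0.05), among them Cyp17a1 (-2.96) and Cyp4a14 (-2.22), while 8 did not pass the test. Without TRIM24 C52/55A replicate 2 the male-biased counts were again 15 and 0, but in the female-biased list 2 rose, Cyp2c69 and Cyp2c40, and 4 fell. The mean log2(FPKM + 1) of the male-biased list was 5.99, 6.47 and 5.77 in WT and 8.25, 8.10 and 8.01 in TRIM24 C52/55A, and that of the female-biased list was 2.45, 2.41 and 2.97 in WT and 1.70, 1.22 and 2.03 in TRIM24 C52/55A. Within WT, Slco1a1 followed the order of the male-biased list and Slco1a4 that of the female-biased list, but within TRIM24 C52/55A neither did. Slco1a1 was lowest there in replicate 2 and the male-biased list in replicate 3, while Slco1a4 was lowest in replicate 1 and the female-biased list in replicate 2. WT replicate 2, highest in Slco1a1, was the lowest WT liver in Slco1a4, and WT replicate 3 was the reverse. Neither the sample labels nor the study's account of the RNA-Seq gives the sex of these mice, and the study describes as male the mice of this genotype, age and diet whose livers it measured by Q-PCR. The part of these lists in the result was not tested.

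**Figure D4:**
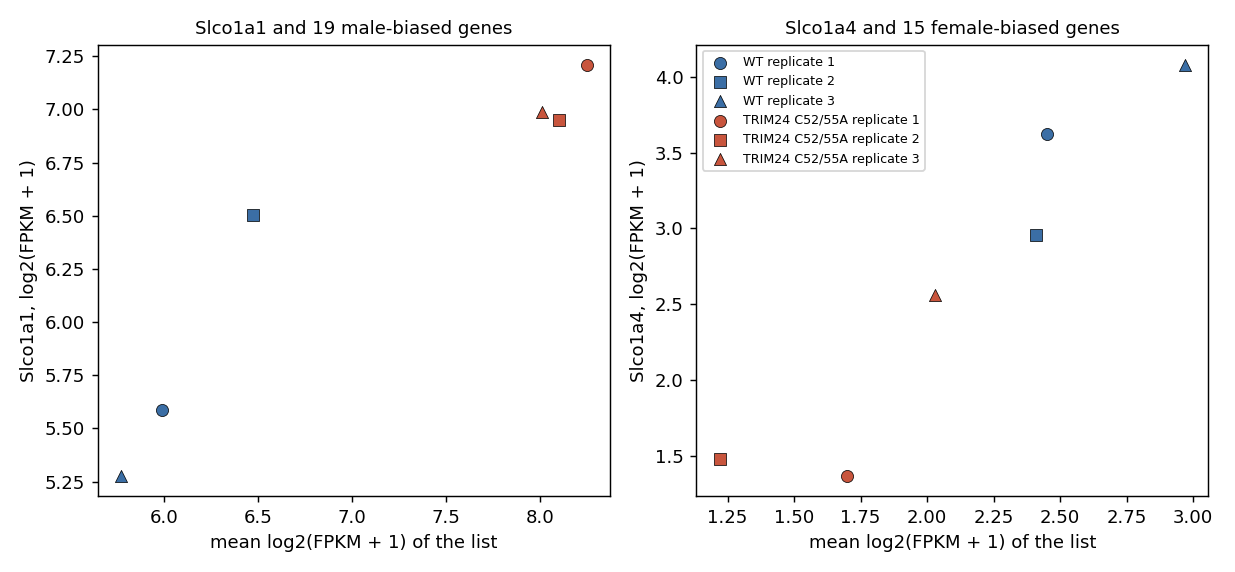
Left, log2(FPKM + 1) of Slco1a1 against the mean of the 19 male-biased genes tested, and right, that of Slco1a4 against the mean of the 15 female-biased genes tested, with one point per liver (blue, WT; red, TRIM24 C52/55A). The WT livers lie at 5.77 to 6.47 on the male-biased axis and the TRIM24 C52/55A livers at 8.01 to 8.25, and WT replicate 3 is the highest of all livers on both axes at right. Both lists were written with earlier results of these data known.

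Of 17 nuclear receptors and other known regulators of these transporters tested, 0 rose and 2 fell in the limma fit, with a median log2 fold change of -0.14, and at an unadjusted p under 0.05 there were 0 higher and 5 lower. Nr1i3, which encodes CAR, the xenobiotic receptor, had 120.0, 100.8 and 139.9 FPKM in WT and 76.8, 61.0 and 67.0 FPKM in TRIM24 C52/55A, without overlap, and fell by 0.80 on the log2 scale (SE 0.13, limma adjusted p = 0.0127). The LXRβ gene Nr1h2 fell as well, with a log2 fold change of -0.48 (limma adjusted p = 0.0342). Without TRIM24 C52/55A replicate 2 the same 2 regulators, Nr1i3 and Nr1h2, fell. The bile acid receptor FXR (Nr1h4) had 45.2, 47.7 and 47.0 FPKM in WT and 44.0, 34.9 and 38.0 FPKM in TRIM24 C52/55A, with a log2 fold change of -0.26 (limma adjusted p = 0.146). Its target Nr0b2, which encodes the repressor SHP, had 37.6, 42.9 and 27.8 FPKM in WT and 30.7, 70.2 and 27.8 FPKM in TRIM24 C52/55A (limma adjusted p = 0.845). The log2 fold changes of the PXR gene Nr1i2 and the LXRα gene Nr1h3 were -0.10 and -0.14, and neither passed the test.

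Known targets of these receptors other than the transporters were counted from lists in the limma fit. Of 18 targets of CAR, PXR or NRF2 tested 0 rose and 7 fell (median log2 fold change -0.55), including the glutathione transferase Gstm2 (-1.46), the quinone reductase Nqo1 (-1.002), Cyp2c29 (-0.82), the sulfiredoxin gene Srxn1 (-0.77) and the bilirubin transferase Ugt1a1 (-0.64), which shares its last exons with the other Ugt1a genes. Of 7 LXR targets 0 rose and 2 fell (median -0.41), Pltp, which encodes the phospholipid transfer protein (-1.61, limma adjusted p = 0.00178), and Smpdl3a (-0.42). Of 8 FXR targets tested 0 rose and 1 fell (median -0.07), the lipase cofactor Apoc2 (-1.19, limma adjusted p = 0.0048). Of the receptors and targets named, the interval in the expression tables was longer than the annotated gene for Ugt1a1 (23.4 times), Cyp2c29 (1.65 times), Apoc2 (1.56 times), Pltp (1.48 times) and Nr1i3 (1.27 times). Whether their values hold reads of neighbouring genes was not tested. At an unadjusted p under 0.05 the numbers higher and lower were 0 and 12, 1 and 4, and 0 and 3 in these lists, in the order given. Without TRIM24 C52/55A replicate 2, 7, 4 and 1 of the genes fell in the limma fit, with Nqo1 no longer among the 7, and the medians were -0.49 in the first list, -0.49 in the second and -0.19 in the third.

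Among 20 other bile acid and sterol carriers tested, 2 rose and 0 fell in the limma fit, with a median log2 fold change of -0.004, and at an unadjusted p under 0.05 there were 5 higher and 3 lower. Abcg2, which encodes BCRP, a canalicular exporter of sulphated conjugates, had 46.4, 48.0 and 45.4 FPKM in WT and 66.8, 56.3 and 58.1 FPKM in TRIM24 C52/55A, without overlap, a log2 fold change of 0.36 (limma adjusted p = 0.0394). Slco2a1, which encodes the prostaglandin transporter, had 10.5, 12.4 and 12.1 FPKM in WT and 22.6, 21.7 and 15.6 FPKM in TRIM24 C52/55A, a log2 fold change of 0.71 (limma adjusted p = 0.0232). Without TRIM24 C52/55A replicate 2 there were 3 higher, these and Slc10a5, whose interval in the tables is 6.05 times the annotated gene, and 2 lower, Npc2 and Slc29a1, with a median of -0.08. Of 15 proteins that anchor or traffic the transporters in the hepatocyte membrane, 0 rose and 0 fell in the limma fit (median log2 fold change -0.06), and at an unadjusted p under 0.05 there were 1 higher and 2 lower. The calls of this list were again 0 and 0 without TRIM24 C52/55A replicate 2, with a median of -0.14.

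For each transporter that passed the test, the 3 genes of most similar pattern were sought among 6560 genes averaging 5 FPKM or more, by the mean absolute difference of centred log2(FPKM + 1) over the 6 libraries. Those of Slc10a1 included Pebp1 (0.04) and Gstt1 (0.04), which encode an inhibitor of Raf kinase and a glutathione transferase. Those of Slco1a1 were Adh6-ps1 (0.16), the major urinary protein gene Mup13 (0.19) and the protease inhibitor gene Serpine2 (0.19). For Slco1a4 they were Gm3776 (0.15), the lipocalin gene Lcn2 (0.21) and the adenosine receptor gene Adora1 (0.22), and for Abcc3 the class I gene H2-Q10 (0.08), Apoc2 (0.09) and the annexin gene Anxa2 (0.10). Since the samples form 2 groups, genes that differ between the genotypes by a like amount are close by this measure, and reads of Mup13, Gm3776 and H2-Q10 may be shared with near-identical paralogs.

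**Figure D5:**
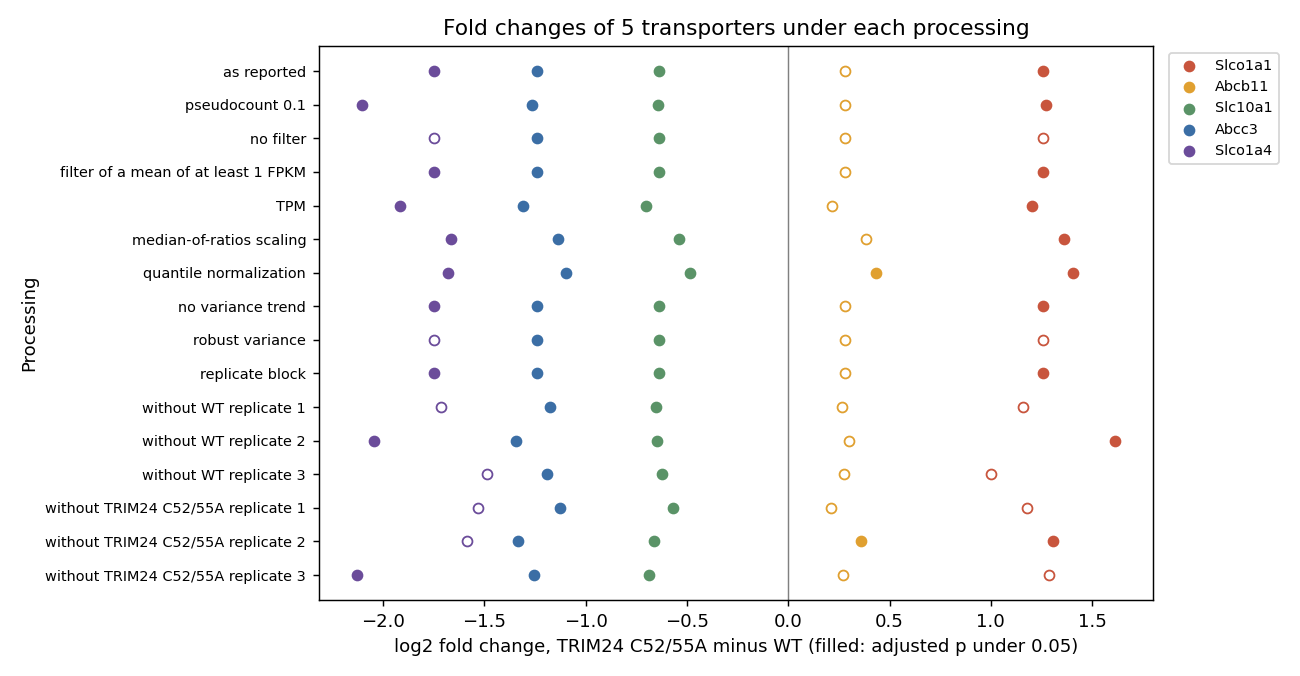
Log2 fold change, TRIM24 C52/55A minus WT, of the 5 transporters whose groups did not overlap, as reported and under each of 15 processing alternatives; filled points have an adjusted p under 0.05. The points of Slc10a1 and Abcc3 are filled throughout, those of Slco1a1 and Slco1a4 in 9 of 15 alternatives and those of Abcb11 in 2 of 15, and no gene of the 5 changes sign.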

How the data were processed

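RNA-Seq was measured in liver, with 3 WT and 3 TRIM24 C52/55A libraries grouped by their titles. The authors deposited one table per library holding FPKM per gene with gene name and GRCm38 interval. The submitters' processing notes name bcl2fastq, Salmon 0.14.0 and DESeq2 1.30.0 with no role, and how FPKM was computed from reads, and the aligner, were not given in the sources used here. FPKM are not counts, so no count test was run.

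Genes not listed in a library were set to 0, which concerned 56 of the 12225 genes tested and no transporter. Those averaging 0.5 FPKM or more over the 6 libraries were fitted on log2(FPKM + 1) in limma 3.58.1 (R 4.3.3, variance trend) with no covariates, after the script was tested on simulated data, and Benjamini-Hochberg adjustment covered all of them. A call is an adjusted p under 0.05. Sums, ratios and single genes were compared by exact two-sided permutation tests (scipy 1.17.1, Python 3.11.15). Intervals are 95%. The precision rests on 3 libraries per group, since FPKM keep no read totals. Gene extents were from GENCODE M21 and upstream sequences from RefSeq (GRCm38.p6).

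The transporters and gene lists were chosen with earlier results of these data known. Named genes were the transporters, the 3 genes of most similar pattern for each transporter called, Nr1h4, Nr0b2, Nr1i2, Nr1i3 and Nr1h3, and up to 5 called genes per list by size of change, of which 1 is not reported here. The alternatives tried were another pseudocount (0.1), no filter or one of 1 FPKM, TPM, median-of-ratios scaling, quantile normalisation, no variance trend, robust variance, a replicate block and leaving out each library.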

Additional observations from a re-analysis of the deposited data

How the results depend on the processing

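The count of all genes called, 944, moved to 347 without the filter, 1555 as TPM and 578 with the replicate block, and to 296 to 1272 when single libraries were left out (313, 480 and 301 without WT replicate 1, 2 and 3, and 296 without TRIM24 C52/55A replicate 1). The count of transporters called higher, 1, became 0 without the filter and with robust variance, 2 with quantile normalisation, and 0 to 2 when single libraries were left out, and the count called lower, 3, was 2 or 3 throughout. Slco1a1 and Slco1a4 were not called without the filter (adjusted p = 0.101 and 0.0914) or with robust variance (0.0624 and 0.0583). The log2 fold changes that turned sign belonged to genes not called: Abcb4 (0.031 with median-of-ratios scaling, 0.089 with quantile normalisation), Abcc2 (0.037 with quantile normalisation) and Abcg8 (0.06 with median-of-ratios scaling, 0.089 with quantile normalisation, and -0.269 to 0.122 when single libraries were left out, above 0 without WT replicate 2 or 3 or TRIM24 C52/55A replicate 1 or 3). The cause was not tested. Same-numbered libraries come from different mice and did not deviate together (correlations -0.12, -0.10 and 0.00), so the numbers do not pair them, and the block changed no transporter's call. With 3 libraries per genotype an exact test cannot fall under 0.1.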

Other observations

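Markers of other liver cell types were counted in all 6 libraries and without TRIM24 C52/55A replicate 2, the library with adipocyte transcripts. Of 12 Kupffer cell markers 0 rose and 0 fell in the limma fit (median log2 fold change -0.29, with 0 higher and 2 lower at an unadjusted p under 0.05), and their summed level was 309.1 to 386.5 FPKM in WT and 253.5 to 370.2 FPKM in TRIM24 C52/55A. The 10 stellate cell markers had 0 calls in either direction in that fit, with 1 higher and 4 lower at an unadjusted p under 0.05, and summed to 236.1 to 247.8 FPKM and 225.5 to 290.5 FPKM. Of the 10 sinusoidal endothelial markers 1 fell, Lyve1 (-1.26), and their sum was 160.7 to 170.1 FPKM in WT and 152.8 to 155.9 FPKM in TRIM24 C52/55A, ranges that do not overlap. The 5 red blood cell genes summed to 673.2 to 1800 FPKM in WT and 522.0 to 729.5 FPKM in TRIM24 C52/55A, with 0 limma calls and, at an unadjusted p under 0.05, 1 higher and 3 lower. Of the hepatocyte markers the urea cycle enzyme Cps1 rose (log2 fold change 0.63) and the receptor subunit gene Asgr1 fell (-0.31). Without TRIM24 C52/55A replicate 2, 5 Kupffer cell markers fell (C1qa, C1qb, C1qc, Csf1r and Cd68; median of the list -0.48), as did 3 stellate cell markers (Col1a1, Col1a2 and Col3a1; median -0.10, against -0.01 with all libraries) and Lyve1, while the red blood cell gene Alas2 rose. Among the hepatocyte markers Cps1 rose and Tat fell without that library, and Asgr1 was not called. The tables give Alas2 and Csf1r intervals 5.35 and 2.27 times their annotated genes. The adipocyte list then had 1 higher, Adrb3, and 3 lower, Cidec, Cfd and Fabp4.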
